A study of Arabidopsis thaliana with 7 samples.

Results

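The ARGONAUTE genes AGO1 to AGO9 of Arabidopsis thaliana were followed in isolated embryos of the 8-cell stage, in wild type and in the bodenlos (bdl) mutant. They are 9 of the 27826 probe sets of the array, chosen by locus identifier: AGO1 (AT1G48410_at), AGO2 (AT1G31280_at), AGO3 (AT1G31290_at), AGO4 (AT2G27040_at), AGO5 (AT2G27880_at), AGO6 (AT2G32940_at), AGO7 (AT1G69440_at), AGO8 (AT5G21030_at) and AGO9 (AT5G21150_at). Each gene has 1 probe set. AGO10, the remaining member of the family, is given only where it is the closest relative of a gene described here. RNA came from about 40 to 50 embryos per array, with 4 arrays of wild-type Col-0 and 3 arrays of embryos labelled as mutant for Bodenlos (IAA12) in the same Col-0 background. All 4 labelled wild-type arrays were used, although the series description counts 3 replicates of each genotype. BODENLOS is an Aux/IAA protein, a repressor of the auxin response factor MONOPTEROS (MP), and by its title the study asks how division planes are oriented in the embryo. The labels give neither the bdl allele nor the promoter that drives it, and they do not say whether replicates came from separate harvests, so the spread behind each p-value is that between these arrays and may be technical.

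ARGONAUTE proteins bind small RNAs and use them as guides to matching RNA. In plants the family falls into clades with different work. AGO1 acts mainly with microRNAs on messenger RNA, and AGO5 and AGO10 are its relatives by clade. AGO2, AGO3 and AGO7 form another clade, and AGO4, AGO6, AGO8 and AGO9 belong to the clade of RNA-directed DNA methylation, in which small interfering RNAs guide methylation of matching DNA. In the early embryo microRNAs are known to hold back differentiation genes, and AGO10 is known to sequester the microRNAs that act on class III HD-ZIP genes. Fewer cells of a type and less RNA per cell cannot be told apart in RNA of whole embryos.

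Of the 9 genes, AGO5 alone passed the test between genotypes: it was about 3-fold higher in bdl. The other 8 did not pass in either direction. Their log2 differences, bdl minus wild type, ran from -0.38 to 0.44, and the median of all 9 was 0.03 against -0.01 over all probe sets. The threshold was an adjusted p under 0.05 (limma over all 27826 probe sets), which 1.76% of probe sets reached, 0.902% toward higher levels in bdl. Wild-type and bdl arrays were fully separated for 1 of the 9 genes, again AGO5, and for 11.2% of all probe sets. Each value below is an intensity on a linear scale, and each difference is on the log2 scale.

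**Figure D1:**
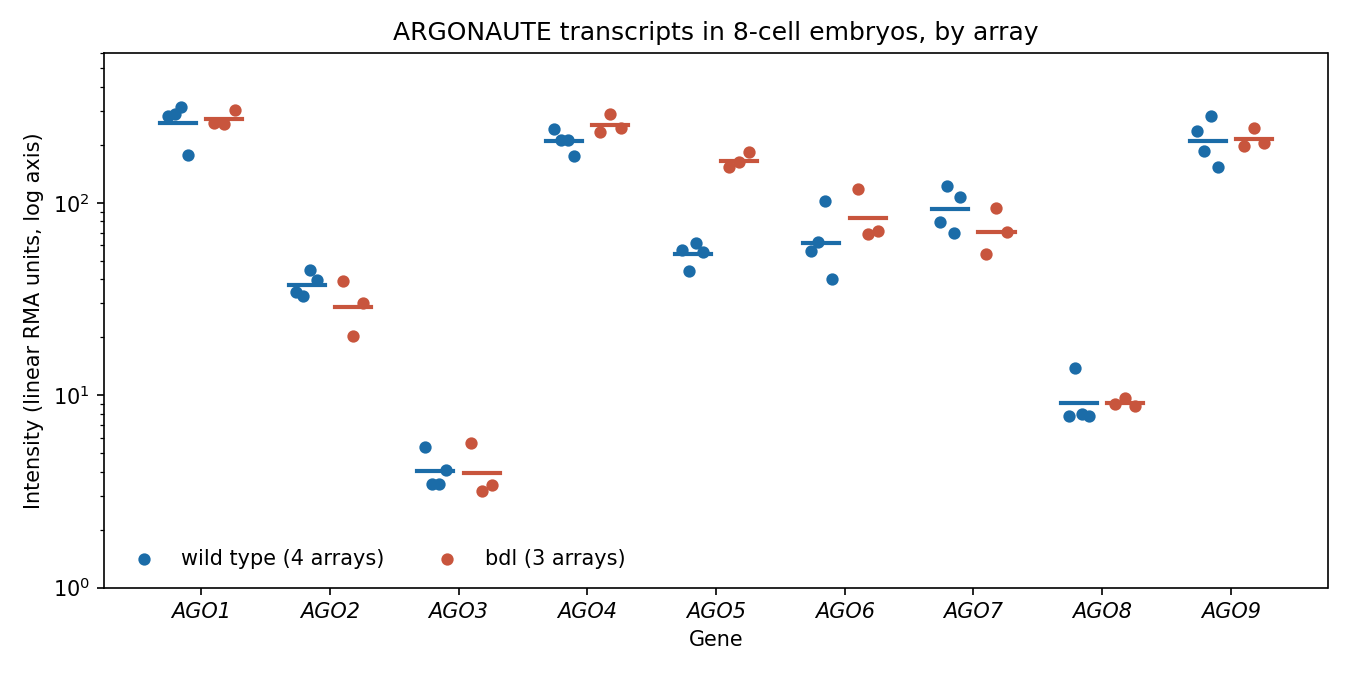
Intensity of AGO1 to AGO9 on each array (vertical log axis, linear RMA units), with wild type in blue (4 arrays) and bdl in red (3 arrays). Points are arrays and bars are geometric means; the red points lie above every blue point for AGO5 (152.6 to 183 against 44.1 to 61.99), and the genotypes overlap in each of the other genes.

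AGO5 belongs to the AGO1 clade and is known from reproductive tissue. Its intensity in the wild-type arrays 1 to 4 was 56.7, 44.1, 61.99 and 55.6, and in the bdl arrays 1 to 3 it was 152.6, 162 and 183. The lowest bdl array thus lay above the highest wild-type array, and the spread within a genotype was small beside the gap. The mean log2 intensity was 5.76 ± 0.21 in wild type (SD, n = 4) and 7.37 ± 0.13 in bdl (SD, n = 3). The log2 difference was 1.61 ± 0.19 (SE; limma, adjusted p = 0.00484), a 3.06-fold higher level with a 95% interval of 2.25-fold to 4.14-fold. Among the 251 probe sets called higher in bdl, whose median difference was 2.01, AGO5 ranked 169 by the size of its difference. The call was kept in each of the 7 omissions of 1 array, with differences of 1.51 to 1.68. It was lost, at a similar difference of 1.496, when only the 4 arrays with the least pollen RNA were kept (limma, adjusted p = 0.169), a setting chosen after the data were seen. The call was also lost with the replicate number as a block (1.62; limma, adjusted p = 0.0689). Whether same-numbered arrays are pairs is not known.

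Of the loci next to AGO5 on chromosome 2, none of the 3 measured on either side in locus order was called, and their differences ran from -0.72 for HDT4, a plant-specific histone deacetylase gene, to 0.47 for AXS1, a gene of nucleotide sugar synthesis. Genotypes were separated for HDT4 and AXS1, which lie on the same side of AGO5 and differ in sign. Of all probe sets 11.2% were separated. These are few loci, and a local effect was not tested.

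A search over the 13912 other probe sets with a mean above the median of all asked which genes had the profile most like that of AGO5. Likeness was the root mean square distance between log2 values over the 7 arrays, each gene centred on its own mean, and the median distance of all these probe sets from AGO5 was 0.89. The closest was PAP15, a purple acid phosphatase gene, at a distance of 0.19, with intensities of 56.8 to 70.9 on wild-type arrays and 169 to 198 on bdl arrays. IAA12, the BODENLOS gene itself, came next at a distance of 0.198. Its intensity was 135 to 167 on wild-type arrays and 432 to 477 on bdl arrays, a difference of 1.59 ± 0.17 (SE; limma, adjusted p = 0.00287). The third was PDC2, a pyruvate decarboxylase gene, at 0.203, with 12.8 to 17.8 on wild-type arrays and 49.4 to 63.2 on bdl arrays. All 3 stand high in every bdl array, as AGO5 does, which follows from choosing genes by closeness to the values of AGO5. A link between any of them and AGO5 was not tested.

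AGO1, the main partner of plant microRNAs, had similar levels in the genotypes. The wild-type arrays 1 to 4 gave 283, 290.1, 316 and 177, and the bdl arrays 259, 256 and 305. The bdl arrays lay inside the wild-type range, which was opened by the low value of wild type 4. The log2 difference was 0.07 ± 0.24 (SE; limma, adjusted p = 0.956), with a 95% interval of -0.49 to 0.62. AGO10, the closest relative of AGO1, moved the other way from AGO5: it read 144, 113, 143 and 75.1 in wild type and 38.0, 28.8 and 45.2 in bdl, a difference of -1.65 ± 0.29 (SE; limma, adjusted p = 0.0310). AGO10 was no longer called when any array except wild type 4 was left out, with adjusted p-values of 0.0680 to 0.123.

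Whether relatives changed unequally was tested on the log2 ratio of a pair of genes within each array, with an exact permutation test (2-sided, by the absolute difference of group means) over the 35 splits of the arrays into 4 and 3. The ratio of AGO5 to AGO1 was higher in bdl by 1.55 on the log2 scale, and the ratio of AGO10 to AGO1 differed by -1.71. In these pairs the genotypes did not overlap, and each reached an exact p = 0.0286, the smallest value the design allows. Adjusted over the 5 pairs compared, the exact p was 0.0714 for each, so neither passed. Both already had the smallest exact p possible, and with the other pairs overlapping the adjusted value could not fall under 0.05. The adjusted test therefore cannot decide whether the genes of these pairs changed unequally. The other pairs overlapped: AGO3 against AGO2 shifted by 0.36 (exact p = 0.171), AGO6 against AGO4 by 0.15 (exact p = 0.514) and AGO9 against AGO8 by 0.02 (exact p = 1).

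**Figure D2:**
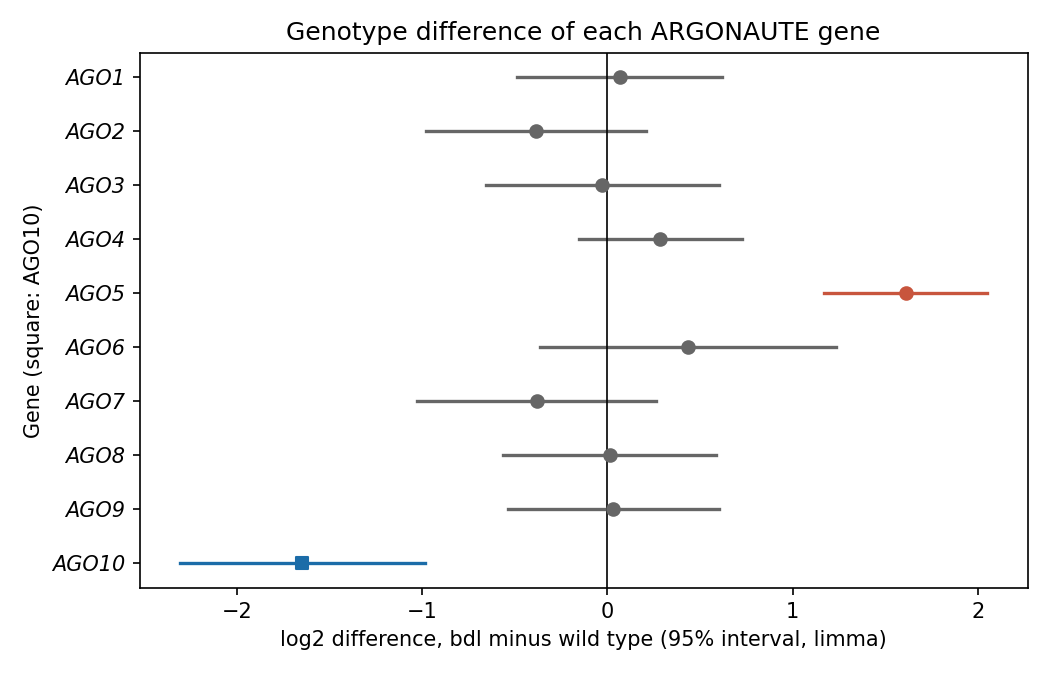
Log2 difference, bdl minus wild type (horizontal axis), of each ARGONAUTE gene with its 95% interval from limma (lines). Red marks the call toward higher levels (AGO5, 1.61), blue the call toward lower levels (AGO10, square, -1.65) and grey the 8 genes without a call, whose intervals all cross 0.

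AGO2 and AGO3 are direct neighbours on chromosome 1, with no measured locus between them. AGO2, known for antiviral defence, gave 34.5, 32.6, 44.4 and 39.7 in wild type and 39.2, 20.2 and 29.9 in bdl. The genotypes overlapped, with the lowest values in bdl 2 and bdl 3. Its difference was -0.38 ± 0.26 (SE; limma, adjusted p = 0.692), with a 95% interval of -0.98 to 0.21. AGO3 was dim, with 3.44 to 5.36 on the wild-type arrays and 3.17 to 5.67 on those of bdl. Its mean lay below the median of all probe sets, and since detection calls were not used here, these values are not known to exceed background. The difference of AGO3 was -0.03 ± 0.27 (SE).

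AGO7, the partner of miR390 in the production of trans-acting small RNAs from TAS3 transcripts, varied as much within as between genotypes. It gave 79.6, 122.7, 69.3 and 107 in wild type and 54.1, 93.9 and 70.1 in bdl. One bdl array (bdl 1) lay below all wild-type arrays and the other two lay within their range. The difference was -0.38 ± 0.28 (SE; limma, adjusted p = 0.721), with a 95% interval of -1.03 to 0.26. TAS3 itself read 85.7 to 115 on wild-type arrays and 120.4 to 127 on bdl arrays. These arrays did not overlap, but the difference of 0.33 was not called (limma, adjusted p = 0.599).

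In the DNA methylation clade no gene was called. AGO4, a central effector of RNA-directed DNA methylation, gave 241, 213, 211 and 174 in wild type and 233, 289 and 243 in bdl. The genotypes overlapped only through wild type 1 and bdl 1. Its difference was 0.29 ± 0.19 (SE; limma, adjusted p = 0.688), with a 95% interval of -0.15 to 0.72. AGO6, which shares work with AGO4, had the largest SE of the 9 genes, at 56.1, 62.5, 102 and 40.2 in wild type and 118, 68.5 and 71.6 in bdl. Wild type 3 and bdl 1 stood high, and the difference of 0.44 ± 0.35 (SE; limma, adjusted p = 0.747) had the widest interval, -0.36 to 1.24.

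AGO9 is known from the ovule, where it limits the number of cells that enter the female germ line. It was well above the median of all probe sets in these embryo samples, at 237, 186, 284 and 154 in wild type and 197, 244 and 204 in bdl. The bdl arrays lay within the wild-type range, and the difference was 0.03 ± 0.25 (SE; 95% interval -0.54 to 0.60). AGO8, often described as a probable pseudogene, was dim, at 7.80, 13.9, 7.98 and 7.75 in wild type and 9.01, 9.65 and 8.76 in bdl. Wild type 2 stood apart from the other wild-type arrays, and the difference was 0.01 ± 0.25 (SE). AGO8 and AGO9 lie on chromosome 5 with 13 measured loci between them; the probes themselves were not used here, so signal shared between similar family members cannot be told apart from their own.

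Wild type 4 was the lowest wild-type array for 5 of the 9 genes, AGO1, AGO4, AGO6, AGO8 and AGO9, and for AGO10. For AGO8 it was nearly level with wild type 1 and 3 (7.75 against 7.80 and 7.98). The share of all probe sets that were lowest on wild type 4 was not counted, so the 5 genes cannot be set against it. That array also had the highest mean over 15 pollen and sperm markers, a log2 intensity of 3.76, where wild type 1 to 3 had 2.08 to 2.67 and the bdl arrays 2.02 to 2.97. The summed intensity of these markers was 69.7 to 681 on wild-type arrays and 64.4 to 297 on bdl arrays. None of the 15 was called, and 11 had a negative difference. Without wild type 4 the difference of AGO5 was 1.62 (limma, adjusted p = 0.0163). None of the other 8 genes was called without wild type 4 either.

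Markers of the tissues around the embryo stand beside AGO5 because it is known from reproductive tissue. Of 11 seed coat and ovule markers none was called, 8 had a negative difference, and the summed intensity was 112 to 240.3 on wild-type arrays and 46.8 to 133 on bdl arrays, ranges that overlap. Singly, 3 of the 11 did not overlap between genotypes, where 11.2% of all probe sets did not. TT1 was higher in bdl (0.77), and TT2 (-1.40) and STK (-1.72) were lower. Of 11 endosperm markers none was called and 8 lay below the 25th percentile of all probe sets, among them FIS2, AGL62 and PHE1. The summed intensity of the 11, most of it from SUC5, was 297 to 407 on wild-type arrays and 140.3 to 266 on bdl arrays, with no overlap. SUC5 itself overlapped, at 176 to 320 against 86.5 to 185. Singly, 2 of the 11 did not overlap, FIS2 higher (0.35) and EDE1 lower (-0.69) in bdl, where 11.2% of all probe sets did not. The part of these tissues in the results was not tested. Of the 10 embryo markers none lay below the 25th percentile of all probe sets. WOX2, of the apical lineage, read 907 to 1280 over all arrays and WOX8, of the basal lineage, 413 to 492. WOX9 read 1083 to 1461 on wild-type arrays and 688 to 810 on bdl arrays, without overlap, and was not called (limma, adjusted p = 0.0880). Singly, 6 of the 10 did not overlap between genotypes, 2 higher and 4 lower in bdl, where 11.2% of all probe sets did not. The embryo list was not alike in the genotypes: 8 of the 10 had a negative difference, DRN (-1.99) and PDF1 (-2.83) were called lower and FUS3 (1.02) higher in bdl, and the mean log2 intensity over the list was 8.75 to 8.96 on wild-type arrays and 8.35 to 8.45 on bdl arrays. FUS3 was close to the threshold (limma, adjusted p = 0.0451).

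The other genes of the small RNA pathways were followed in 5 lists with 65 genes in all, and none was called by limma. At an unadjusted p under 0.05 there were 9, of which 8 were higher in bdl, where 10.7% of all probe sets reached that mark. The arrays did not overlap for 11 of the 65, 8 higher and 3 lower in bdl, where 11.2% of all probe sets were separated, 5.71% higher and 5.53% lower. Genes that make microRNAs had a median difference of 0.13 over 12 members, none of them called and none at an unadjusted p under 0.05. DCL1, the Dicer-like enzyme that cuts microRNA precursors, was at 13.6 to 18.0 on wild-type arrays and 13.2 to 17.2 on bdl arrays. The smallest p belonged to HST, the exportin-like HASTY (0.95 ± 0.46, SE; limma, adjusted p = 0.535), and to CBP20, a subunit of the nuclear cap-binding complex (-0.23 ± 0.17, SE; limma, adjusted p = 0.721).

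**Figure D3:**
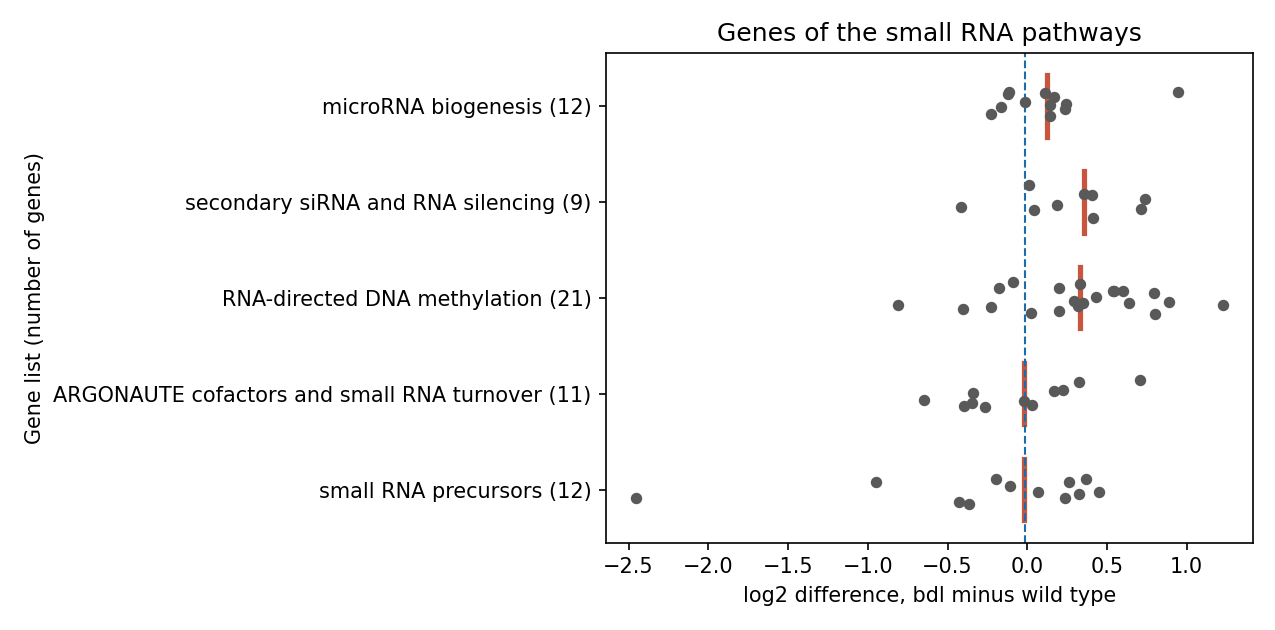
Log2 difference, bdl minus wild type (horizontal axis), of each gene (points) in 5 lists of small RNA pathway genes, with the list median in red and the median of all probe sets as a dashed blue line. The medians lie at 0.35 for secondary siRNA genes and 0.33 for DNA methylation genes, and between -0.02 and 0.13 for the other lists; no gene was called.

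Genes of RNA-directed DNA methylation, the pathway that AGO4, AGO6 and AGO9 serve, mostly had higher means in bdl without any being called. Of 21 members, 16 had a positive difference, where 48.3% of all probe sets did, and the median was 0.33. At an unadjusted p under 0.05 there were 7, 6 higher and 1 lower, where 10.7% of all probe sets reached that mark. The arrays did not overlap for 6, 5 higher and 1 lower, where 5.71% of all probe sets were separated toward higher and 5.53% toward lower levels. The mean log2 intensity over the list was 5.38 to 5.73 on the wild-type arrays and 5.77 to 6.01 on the bdl arrays, and these ranges did not overlap. Genes of a list are not independent replicates, and this is a description of the 7 arrays.

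NRPD1, which encodes the largest subunit of RNA polymerase IV, the source of the precursors of these small RNAs, gave 48.6, 58.3, 64.1 and 40.6 in wild type and 98.4, 85.6 and 89.3 in bdl. Every bdl array lay above every wild-type array. The difference of 0.80 ± 0.21 (SE) did not pass over all probe sets (limma, adjusted p = 0.1499). CLSY4 (AT3G24340), a chromatin remodeller that helps recruit polymerase IV, gave 18.8, 51.0, 25.7 and 22.1 in wild type and 61.1, 57.8 and 73.1 in bdl. Wild type 2 stood nearest to the bdl arrays. The difference of CLSY4 was 1.23 ± 0.34 (SE; limma, adjusted p = 0.176), and without wild type 2 alone it passed (1.53; limma, adjusted p = 0.0252).

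**Figure D4:**
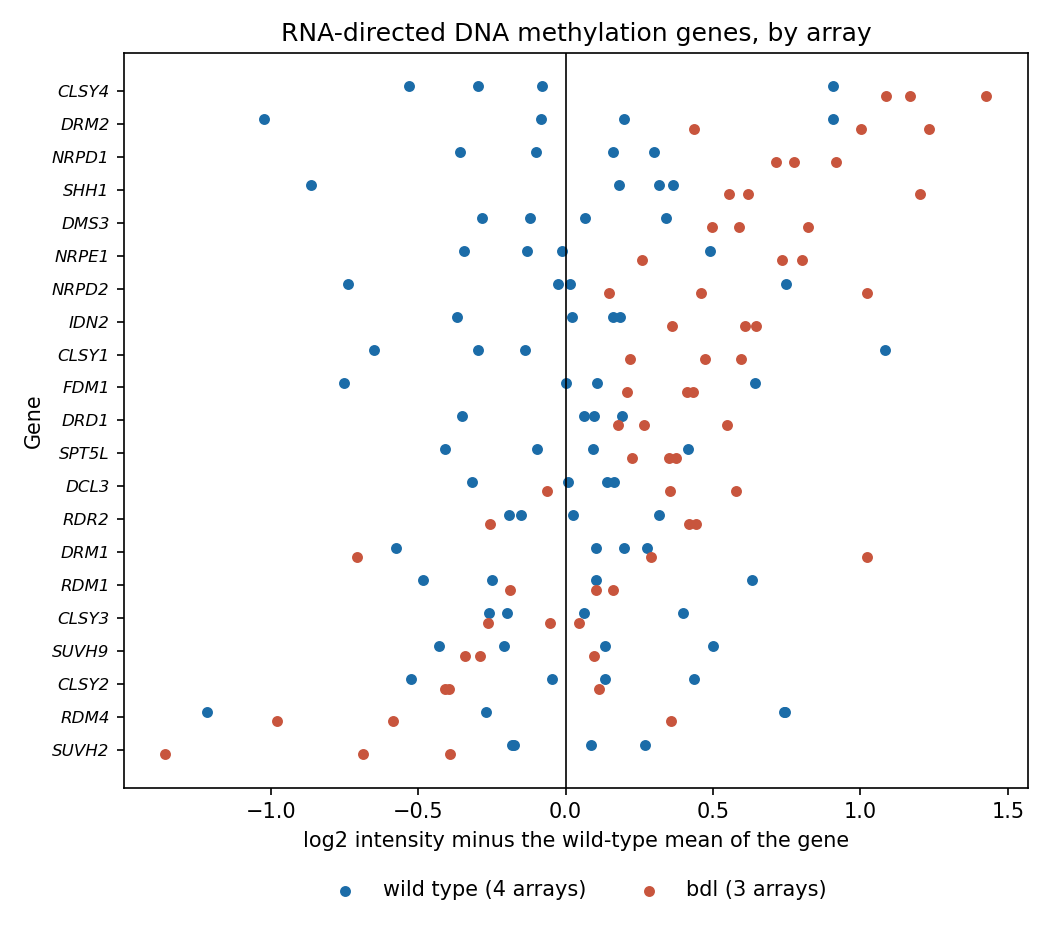
Log2 intensity of 21 RNA-directed DNA methylation genes on each array minus the gene's wild-type mean (horizontal axis), with wild type in blue (4 arrays) and bdl in red (3 arrays), ordered by difference. CLSY4 (1.23) stands at the top and SUVH2 (-0.81) at the bottom, and 16 of the 21 genes have a bdl mean to the right of 0.

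Among the 9 genes of secondary siRNA production and RNA silencing, 8 had a positive difference, where 48.3% of all probe sets did. Their median was 0.35 and none was called. The smallest p belonged to RDR1, an RNA-dependent RNA polymerase gene (0.71 ± 0.27, SE; limma, adjusted p = 0.395), and to SDE3, an RNA helicase gene (0.41 ± 0.19, SE; limma, adjusted p = 0.514). RDR1 was the only 1 of the 9 at an unadjusted p under 0.05, a mark that 10.7% of all probe sets reached. The median was 0.22 without bdl 3 and 0.55 on the 4 arrays with the least pollen RNA. Of 11 cofactors of ARGONAUTE proteins and genes of small RNA turnover, 5 had a positive difference and the median was -0.02. SUO, a gene of translational repression by microRNAs, had the smallest p and did not overlap between genotypes, at 92.8 to 135 on wild-type arrays and 140.1 to 219 on bdl arrays (0.70 ± 0.23, SE; limma, adjusted p = 0.287). SQN, a cyclophilin that promotes AGO1 activity, was at -0.65 ± 0.28 (SE; limma, adjusted p = 0.469).

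The precursor transcripts of microRNAs that act on the family or are bound by it were mostly dim, with 4 of 12 below the 25th percentile of all probe sets, and none was called. A precursor's level is not that of its mature microRNA, which these arrays do not measure separately. For miR168, which targets AGO1, MIR168A read 3.57 to 13.8 on wild-type arrays and 3.43 to 4.33 on bdl arrays, and MIR168B 5.45 to 7.82 and 4.08 to 5.29. The arrays did not overlap for MIR168B (-0.43 ± 0.20, SE; limma, adjusted p = 0.511) and overlapped for MIR168A. For miR403, which targets AGO2, MIR403 ran from 5.28 to 103 within wild type alone and from 20.5 to 43.6 in bdl. TAS3B and TAS3C were dim, at 2.71 to 4.38 and 2.38 to 3.99 in wild type and 2.68 to 3.08 and 3.38 to 4.34 in bdl.

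MIR165B, a precursor of miR165, which acts on class III HD-ZIP genes, turned on a single array. It read 58.1, 83.7, 36.2 and 76.5 in wild type, and 2.77, 3.40 and 143 in bdl. The arrays bdl 1 and bdl 2 lay far below wild type and bdl 3 lay above it. The difference was not called on all arrays (-2.46; limma, adjusted p = 0.567), and without bdl 3 it was called at -4.30 (limma, adjusted p = 0.00368).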

How the data were processed

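The authors deposited 1 table of linear intensity values, with a column for each 1-colour array (biotin label). Per the submitters' processing notes RMA was used (no version); the chip definition and the build are not stated in the sources. All values were above 0 and array medians were 8.44 to 9.37, so log2 was taken with no pseudocount and no further scaling. The test was limma's (version 3.58.1, R 4.3.3; functions lmFit and eBayes, genotype as the only term, 2-sided, Benjamini-Hochberg over all 27826 probe sets). The median SE was 0.27; the number of arrays limits the precision. A simulation changed probe sets picked at random from all, with independent noise, so its rates are not those of the ARGONAUTE genes. In 10 simulated runs, limma recovered 14.5% of genes given a log2 change of 1, 68.2% at a change of 2 and 84.6% at 3. The rate of false calls in these runs was 4.98%. A missing call alone therefore does not exclude a log2 change of 1. Names came from a RefSeq table of assembly TAIR10.1, which held 27241 of the loci and served only for names and order. Same-numbered arrays of the genotypes correlated in their deviations at 0.04 to 0.05, and arrays of unlike number at -0.08 to 0.11. These values do not settle whether the arrays are paired, and numbers were not taken as pairs in the main test.

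All 9 ARGONAUTE genes are named. From each pathway list came the called genes or else the 2 of smallest p, with the precursors of miR168, miR403 and TAS3. DCL1 and the seed and embryo markers were named after their values were seen. Members and lists were chosen with earlier results of these data known. Alternatives were 3 scalings (medians, cyclic loess, quantile), keeping only probe sets above the 25th or 50th percentile, a trended robust variance, weights per array, a replicate block, an adjusted p under 0.1 and omission of each array; the 4 arrays with the least pollen RNA were added after the data were seen. Figures were drawn with matplotlib 3.10.9.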

Additional observations from a re-analysis of the deposited data

Results flagged for a closer look

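Among 86 checks of the wild-type group (the ARGONAUTE genes, IAA12, the pathway genes and the list means), 3 values lay far from the remaining wild-type arrays; by chance about 1 check in 20 does so. AGO8 reached 3.80 (log2 intensity) in wild type 2, with 2.95 to 2.996 in wild type 1, 3 and 4. DDL, a gene of microRNA biogenesis, was at 6.61 in wild type 1, below 7.13 to 7.23 in the rest. SHH1, a gene of RNA-directed DNA methylation, was at 4.37 in wild type 4, below 5.41 to 5.60. Groups of 3 arrays, such as bdl, were not checked in this way.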

How the results depend on the processing

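AGO5 kept its direction in all 17 alternatives and its call in 15, with log2 differences of 1.496 to 1.68 (limma, adjusted p = 0.00349 to 0.169). The count of ARGONAUTE genes called was 1 in all alternatives but those in which AGO5 lost its call, where it was 0. These were the subset of 4 arrays lowest in pollen RNA (1.496; adjusted p = 0.169), with fewer arrays, and the replicate block (1.62; adjusted p = 0.0689), in which wild type 4, alone in its number, adds nothing. Under that block 188 probe sets were called in place of 490. Same-numbered arrays correlated at 0.04 to 0.05 in their deviations, against -0.08 to 0.11 for unlike numbers, and not every array best with its own number. These values do not exclude pairs, but the numbers were not treated as pairs in the main test. None of the other 8 genes was called in any alternative. With 1 array left out, the count of pathway genes called ran from 0 to 1, and the 1 was CLSY4 without wild type 2 and MIR165B without bdl 3. No pathway gene was called in the other alternatives. The median of the DNA methylation list was 0.29 to 0.41. On the 4-array subset the median of the cofactor and turnover list was -0.25 in place of -0.02. Over all probe sets 490 were called, 281, 278 and 299 without bdl 1, 2 and 3, and 105 on that subset. With no detection calls used here, signal over background is unknown for the dim genes AGO3 and AGO8.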
